A study of Mus musculus with 12 samples.

Results

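The 8 genes Srebf1, Srebf2, Scap, Insig1, Insig2, Mbtps1, Mbtps2 and Stard4 encode the SREBP transcription factors, the proteins that hold, escort and cut them, and a sterol carrier. They were taken by symbol, for their known roles, from a table of 55487 Ensembl genes. All 8 were detected in every sample and were among the 11314 protein-coding genes that passed the filter on low counts. Poly(A) RNA was sequenced from primary bone marrow mesenchymal stromal cells (MSCs) of wild-type C57BL/6 mice, derived from female donors of 6 to 8 weeks and kept in AMEM medium with 10% fetal bovine serum. There were 3 groups of 4 samples: untreated control cells, cells given 50 μM A1 for 6 h, and cells given the same dose of A1 for 6 h together with 1 mg/ml ovalbumin (OVA), the chicken egg-white protein used as a model antigen. A1 is a variant of the Accum molecule in which the bile acid cholic acid is joined to a nuclear localization peptide of hnRNPA1. A group given OVA alone and a group given the diluent alone were not analysed here, so that A1 and its diluent cannot be told apart, nor the effect of OVA in cells without A1. The label of the A1 + OVA group also ends in a fragment that names insulin without a dose, and whether insulin was present was not settled. The labels do not say that the samples came from separate cultures or mice. The p-values then measure the spread between these samples only, which may be technical.

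SREBPs are made as precursors in the membrane of the endoplasmic reticulum, where they are bound to SCAP, a sterol-sensing escort protein. When sterols are plentiful, INSIG proteins retain the SCAP-SREBP complex there. When sterols run low, the complex travels in COPII vesicles to the Golgi, where site-1 protease (Mbtps1) and site-2 protease (Mbtps2) release the part of SREBP that enters the nucleus and activates genes of sterol and fatty acid synthesis. SREBP-2 (Srebf2) acts mainly on cholesterol synthesis and uptake, and SREBP-1 (Srebf1) mainly on fatty acid synthesis. Srebf2, Insig1 and Stard4 are themselves SREBP targets, so that their RNA levels are commonly read as outputs of the pathway. Cleavage, transport and nuclear protein were not measured by these libraries.

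The promoter sequences are shown because the transcription factors of this pathway act on DNA that lies in or near their own genes. RefSeq promoter windows (GRCm38.p6, 250 bases before to 50 bases after each annotated start) were found for 7 of the 8 genes, and Stard4 had none. The letters searched on both strands were TCACCCCA for the sterol regulatory element core, CCAAT for the NF-Y box, CACGTG for the E-box and GGGCGG for the GC box. The stretch of Srebf2 at chr15:82147019-82147180 on the plus strand ends where the annotated exons begin. Capitals mark the sterol regulatory element core, from -162 to -155 relative to the RefSeq start, and the NF-Y box, read there as ATTGG on this strand, from -135 to -131. The GC box from -211 to -206 is in lower case.
Srebf2: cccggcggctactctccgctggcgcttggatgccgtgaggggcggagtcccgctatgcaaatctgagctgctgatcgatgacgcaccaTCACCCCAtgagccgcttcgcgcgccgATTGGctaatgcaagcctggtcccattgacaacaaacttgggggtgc
The stretch of Insig1 at chr5:28071162-28071362, also on the plus strand, held an NF-Y box from -216 to -212 and an E-box from -101 to -96, both in capitals. It held no sterol regulatory element core, and its GC boxes, from -229 to -224, -167 to -162 and -126 to -121, are in lower case.
Insig1: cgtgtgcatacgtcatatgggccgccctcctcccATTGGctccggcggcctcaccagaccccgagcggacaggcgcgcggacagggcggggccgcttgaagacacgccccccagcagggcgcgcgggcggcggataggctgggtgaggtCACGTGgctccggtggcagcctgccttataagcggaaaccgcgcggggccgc
Of the 32851 windows of this length in the whole table, 1.56% held TCACCCCA, 37.4% held CCAAT, 35.7% held GGGCGG and 7.15% held CACGTG. Among the 16 cholesterol synthesis genes with a window, 15 held CCAAT, 15 held GGGCGG and 1 held TCACCCCA in any of their windows. Counted in the same way over all 27025 genes with a window, 41.1% held CCAAT, 38.2% held GGGCGG and 1.77% held TCACCCCA. These matches describe letters and are not evidence of binding.

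Srebf2 also carries Mir33 on its own strand, outside its annotated exons. Its mature strands are shown with the seed, bases 2 to 8, in capitals, because miR-33 is known to act on the sterol exporter Abca1, whose RNA is described with the LXR genes.
mmu-miR-33-5p: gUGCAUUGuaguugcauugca
mmu-miR-33-3p: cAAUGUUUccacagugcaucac
The Mir33 hairpin had 0 counts in all 12 samples. Poly(A) libraries of this kind are not made to hold mature miRNAs, so that the level of miR-33 was not measured.

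The libraries held 15644991 to 16881995 counts in control, 13702348 to 14347870 in A1 and 14359973 to 16674294 in A1 + OVA samples. The mitochondrial share of counts was 3.35 to 3.65% in control, 2.81 to 3.29% in A1 and 2.77 to 3.06% in A1 + OVA samples. Against the MSC label, the stromal markers Cxcl12, Pdgfrb and Pdgfra were abundant, while Nt5e and Lepr averaged under 1 CPM (counts scaled to the library size) and Thy1 exceeded 3 counts only in control replicate 2. The summed level of the 9 MSC markers was 4631 to 4851 CPM in control, 2461 to 2577 CPM in A1 and 2551 to 2670 CPM in A1 + OVA samples, mostly Cxcl12. With A1, 3 of the 7 tested MSC markers fell (Cxcl12, Pdgfra and Ly6a) and 1 rose (Cd44, from 175 to 458 CPM). Beside these marker counts and those that follow, 62.7% of all tested genes passed the test with A1 (31.1% lower and 31.7% higher). The summed 9 leukocyte markers ranged from 9.41 to 10.5 CPM in control, 11.98 to 14.7 CPM in A1 and 10.7 to 13.1 CPM in A1 + OVA samples. Of these, Cd14 rose with A1, Cd68 did not pass the test, Cd3e was at 0 in all samples, and Itgam was at 0 in control and A1. The 4 endothelial markers summed to between 0.153 and 0.916 CPM. Of the adipocyte markers, 4 of 6 were tested, and Lep was at 0. With A1, 2 fell, both at low levels: Adipoq (from 2.20 to 0.670 CPM) and Cidec (from 1.54 to 0.893 CPM). Pparg (125 CPM in control and 124 CPM in A1) and Fabp4 (63.2 and 64.0 CPM) did not pass. The summed level of the 6 markers was 189 to 195, 180 to 198 and 178 to 201 CPM in the 3 groups. The 5 osteoblast markers, of which Ibsp was at 0, summed to 130 to 145, 104 to 113 and 90.8 to 94.2 CPM, and both tested ones, Runx2 and Alpl, fell with A1. The part of these shifts in the results below was not tested, and in bulk RNA fewer cells of a type and less RNA per cell cannot be told apart.

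In untreated MSCs, the retention protein Insig1 and the carrier Stard4 had the highest levels per length of the 8 genes. Levels were compared between genes as CPM per kilobase of merged exons. In control samples, Insig1 averaged 62.0 ± 1.90 (SD, n = 4), Stard4 39.7 ± 0.974, Srebf2 29.01 ± 1.503, Insig2 21.6 ± 0.922 and Mbtps1 18.3 ± 0.365. The escort Scap (7.08 ± 0.544), Mbtps2 (7.03 ± 0.434) and Srebf1 (5.12 ± 0.591) were the lowest. Scap and Mbtps2 overlapped between samples, and every other pair of neighbours in this order was separate. In the A1 group the order was Insig1 (36.7), Stard4 (28.3), Srebf2 (21.9), Mbtps1 (15.2), Insig2 (14.6), Mbtps2 (8.24), Scap (7.59) and Srebf1 (5.78), and of these neighbours Mbtps1 and Insig2 overlapped. In the A1 + OVA group Insig2 (16.2) again lay above Mbtps1, and no neighbours overlapped. The level of Mbtps2 per length is less certain than the others, since the 2867 bases of the gene Yy2 lie within its exons on the same strand, and Yy2 was listed with 0 counts. Per length, the sum of Insig1 and Insig2 was 11.9 ± 1.17 times the level of Scap in control, 6.77 ± 0.360 times in A1 and 6.62 ± 0.461 times in A1 + OVA samples. Its lowest control sample, at 10.6, lay above its highest treated sample, at 7.13. These are ratios of RNA, computed after the levels were seen and given with no test.

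**Figure D1:**
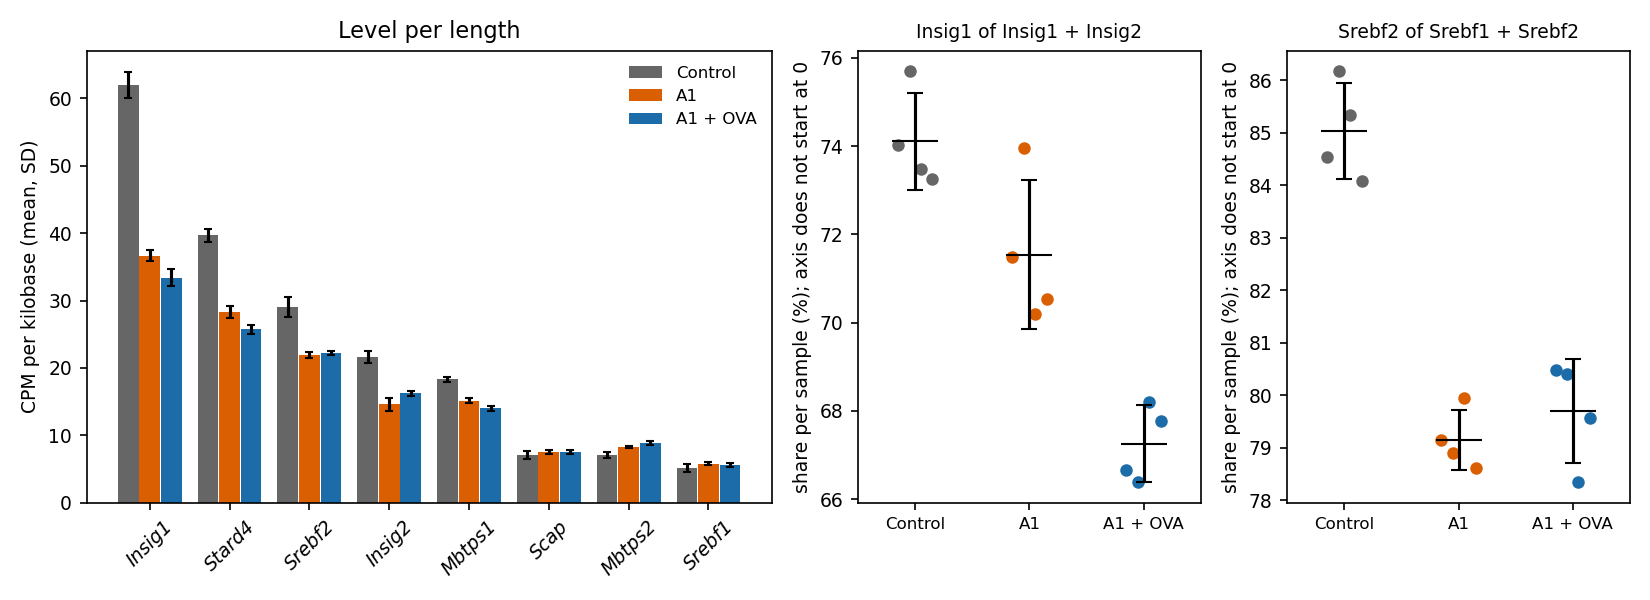
Left, level of each gene per length (CPM per kilobase of merged exons; bars, mean; error bars, SD, n = 4) in control, A1 and A1 + OVA samples. Middle and right, share of Insig1 in the Insig pair and of Srebf2 in the Srebf pair per length in each sample (points; line and error bar, mean and SD; axes do not start at 0); the Srebf2 share lay between 84.1 and 86.2% in control and between 78.3 and 80.5% in all treated samples.

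To ask how A1 changed this machinery, each treated group was compared with control. With A1, 7 of the 8 genes passed the test, 5 lower (Srebf2, Insig1, Insig2, Mbtps1 and Stard4) and 2 higher (Srebf1 and Mbtps2), against a background of 62.7% of all tested genes (31.1% lower and 31.7% higher). The median log2 fold change of the 8 was -0.34, and that of all tested genes was 0.00 to 2 decimals. With A1 + OVA, 6 passed, the same 5 lower and Mbtps2 higher, against a background of 57.6% (27.9% lower and 29.7% higher). Both comparisons use the same control samples. The treated and control samples did not overlap for 6 of the 8 genes in each treatment. Over all tested genes this held for 54.4% with A1 and for 49.4% with A1 + OVA. Of the 8 genes, 2 in each treatment were called lower with a log2 fold change of at most -0.5, against 11.6% and 8.79% of all tested genes, and 0 were called higher by 0.5 or more. The A1 calls at that limit were Insig1 and Insig2, and the A1 + OVA calls were Insig1 and Stard4.

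**Figure D2:**
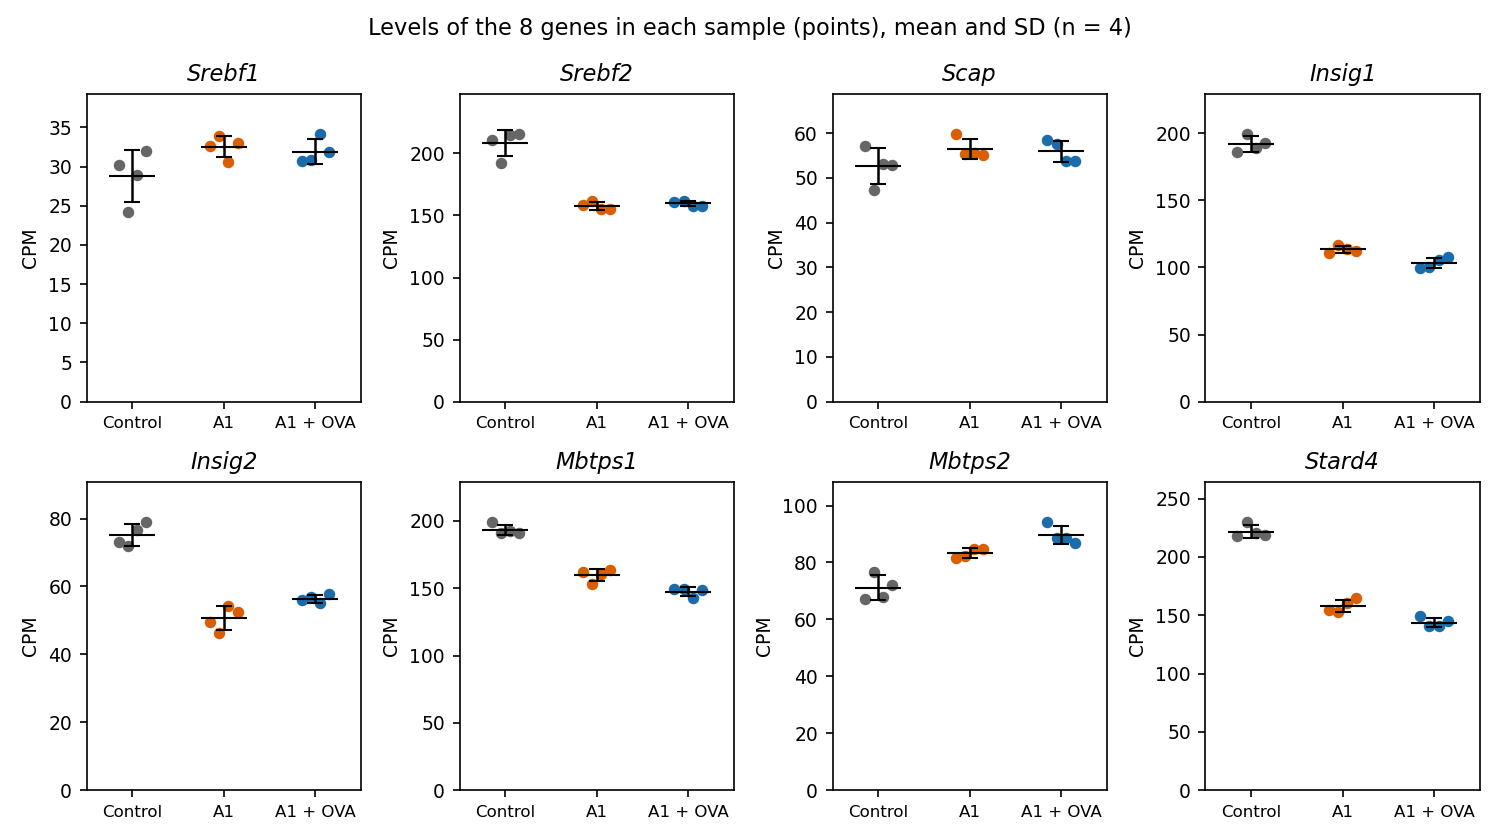
CPM of each of the 8 genes (y axes start at 0) in the 4 samples of control, A1 and A1 + OVA (points), with mean and SD. Srebf2, Insig1, Insig2, Mbtps1 and Stard4 lay lower in every treated sample than in any control sample, Mbtps2 lay higher, and Srebf1 and Scap overlapped.

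**Figure D3:**
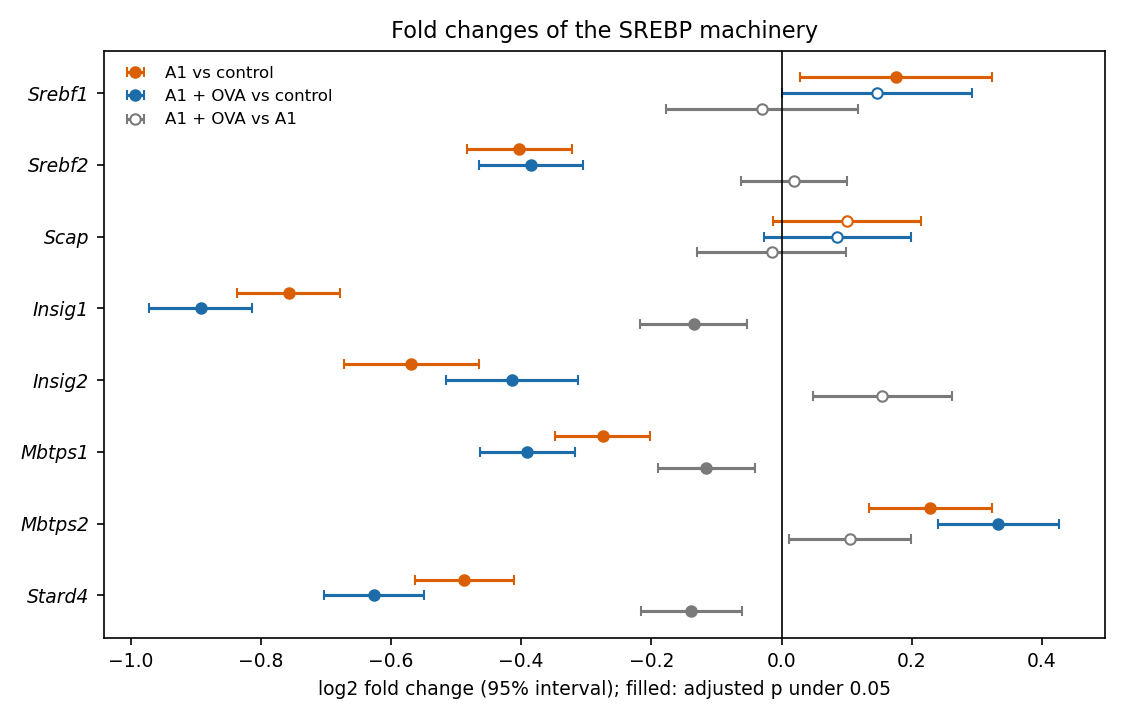
Log2 fold change of each gene with its 95% interval in the 3 comparisons (edgeR); filled points have an adjusted p under 0.05. Insig1 fell furthest, to -0.76 with A1 and -0.89 with A1 + OVA, while the intervals of Scap all included 0.

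Srebf2 (ENSMUSG00000022463, chromosome 15, 82147181 to 82205379, plus strand, GRCm38), the factor that leads cholesterol synthesis, fell by about the same amount in both treatments. The control samples held 211, 193, 215 and 216 CPM. The A1 samples held 158, 162, 156 and 155 CPM and the A1 + OVA samples 161, 162, 158 and 158 CPM. Control replicate 2 was the lowest control and still lay above all 8 treated samples. The log2 fold change was -0.40 ± 0.04 (SE) with A1 (adjusted p = 9.468e-09, edgeR), a fall by 24.4%, and -0.38 ± 0.04 with A1 + OVA (adjusted p = 2.084e-08, edgeR). The difference between the treatments was 0.02, with a 95% interval from -0.06 to 0.10 (adjusted p = 0.796, edgeR). The sequence that carries the sterol regulatory element core is the one just before this gene.

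Srebf1 (ENSMUSG00000020538, chromosome 11, 60199089 to 60222581, minus strand), the factor tied to fatty acid synthesis, did not fall. The control samples held 30.2, 24.2, 28.9 and 32.0 CPM. The A1 samples held 32.7, 33.9, 30.6 and 33.0 CPM and the A1 + OVA samples 30.7, 30.9, 34.2 and 31.8 CPM. Control replicate 2 was the lowest of all 12 samples, and the groups overlapped. The log2 fold change with A1 was 0.18 ± 0.07 and passed the test narrowly (adjusted p = 0.0356, edgeR). With A1 + OVA it was 0.15 ± 0.07 and did not (adjusted p = 0.0793, edgeR). The A1 call was lost under upper-quartile normalization (adjusted p = 0.0797, edgeR) and in 5 of 12 fits with 1 library left out, at adjusted p-values (edgeR) of 0.158 without control replicate 2, 0.0597 without control replicate 3, and 0.0723, 0.0883 and 0.0825 without A1 replicates 1, 2 and 4, while without control replicate 4 the A1 + OVA change passed, at 0.20 (adjusted p = 0.0235, edgeR). The counts do not separate the transcripts for its isoforms SREBP-1a and SREBP-1c.

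Per length, Srebf2 made up 85.0 ± 0.918% of the Srebf pair in control, 79.2 ± 0.572% in A1 and 79.7 ± 0.995% in A1 + OVA samples. All control shares (84.1 to 86.2%) lay above all treated shares (78.3 to 80.5%). This share uses no library size. The difference was -5.88 percentage points with A1 and -5.33 with A1 + OVA, each with p = 0.0286 from a two-sided exact permutation test, the smallest p that 4 against 4 samples allow, and 0.0429 after adjustment over 6 share tests. Between the treatments it was 0.55 points (exact permutation p = 0.4).

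The escort Scap (ENSMUSG00000032485, chromosome 9, 110333288 to 110384950, plus strand) was the 1 gene with no call in any comparison. Its control samples held 57.2, 47.3, 53.2 and 53.0 CPM. The A1 samples held 59.9, 55.3, 55.6 and 55.1 CPM and the A1 + OVA samples 58.5, 57.5, 53.9 and 53.8 CPM. Control replicate 2 was again the lowest sample, and control replicate 1 lay within the treated range. The log2 fold change was 0.10 with A1 (95% interval -0.01 to 0.21, adjusted p = 0.115, edgeR) and 0.09 with A1 + OVA (interval -0.03 to 0.20, adjusted p = 0.184, edgeR). A fall of the size seen in Srebf2 lies outside both intervals. Without control replicate 1, Scap passed as higher, at 0.14 with A1 (adjusted p = 0.0285, edgeR) and 0.13 with A1 + OVA (adjusted p = 0.0498, edgeR).

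Insig1 (ENSMUSG00000045294, chromosome 5, 28071363 to 28078662, plus strand), which binds SCAP in the presence of sterols and is itself induced by SREBP, changed most of the 8 genes. The control samples held 186, 199, 189 and 192 CPM. In the A1 group the values were 111, 117, 114 and 112 CPM, and in the A1 + OVA group 99.7, 100.2, 105 and 108 CPM. The 3 groups did not overlap, with control highest and A1 + OVA lowest. Insig1 fell by 40.8% with A1 (log2 fold change -0.76 ± 0.04, adjusted p = 2.217e-13, edgeR) and, with A1 + OVA, fell by 46.1% (-0.89 ± 0.04, adjusted p = 1.64e-14, edgeR). Of all tested genes, 6.31% had a lower log2 fold change with A1 and 3.29% with A1 + OVA.

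Insig2 (ENSMUSG00000003721, chromosome 1, 121304353 to 121332589, minus strand) does the same work in the membrane but is not known as a direct SREBP target. Its control samples held 73.2, 71.9, 76.7 and 78.9 CPM. The A1 samples held 49.7, 46.3, 54.4 and 52.4 CPM and the A1 + OVA samples 56.0, 56.9, 55.0 and 57.7 CPM. Here A1 alone was the lowest group, and no groups overlapped. The log2 fold change was -0.57 ± 0.05 with A1 (adjusted p = 2.275e-09, edgeR) and -0.41 ± 0.05 with A1 + OVA (adjusted p = 2.469e-07, edgeR).

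The share of Insig1 in the Insig pair was lowest in the A1 + OVA samples. Insig1 made up 74.1 ± 1.11% of the pair per length in control, 71.5 ± 1.70% in A1 and 67.3 ± 0.873% in A1 + OVA samples. The difference of -6.85 points between A1 + OVA and control and that of -4.28 points between A1 + OVA and A1 each had no overlap (exact permutation p = 0.0286, adjusted 0.0429). The difference of -2.56 points between A1 and control did not pass (exact permutation p = 0.0857, adjusted 0.103). A1 replicate 2, at 73.9%, lay within the control range of 73.2 to 75.7%, and without it the difference was -3.37 points with an adjusted p of 0.0343 from the exact permutation test.

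The 2 proteases moved in opposite directions. Mbtps1 (ENSMUSG00000031835, chromosome 8, 119508156 to 119558735, minus strand), which makes the first cut, held 199, 191, 192 and 191 CPM in control samples. The A1 samples held 162, 153, 161 and 163 CPM and the A1 + OVA samples 149, 149, 142 and 149 CPM. All 3 groups were separate, and A1 + OVA was the lowest. The log2 fold change was -0.27 ± 0.04 with A1 (adjusted p = 7.172e-07, edgeR) and -0.39 ± 0.04 with A1 + OVA (adjusted p = 3.787e-09, edgeR).

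Mbtps2 (ENSMUSG00000046873, chromosome X, 157535371 to 157598715, minus strand), the metalloprotease of the second cut, held 67.3, 76.8, 68.0 and 72.2 CPM in control samples. The A1 samples held 81.5, 82.2, 84.6 and 84.9 CPM and the A1 + OVA samples 94.1, 88.6, 88.7 and 87.0 CPM. Control replicate 2 was the highest control, below every treated sample. The log2 fold change was 0.23 ± 0.05 with A1 (adjusted p = 0.0001767, edgeR) and 0.33 ± 0.04 with A1 + OVA (adjusted p = 1.669e-06, edgeR). Mbtps2 was thus the only 1 of the 8 that passed as higher in both treatments.

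Stard4 (ENSMUSG00000024378, chromosome 18), a cytosolic carrier that moves cholesterol between membranes and is a known SREBP target, followed Insig1 in direction. The control samples held 218, 230, 220 and 219 CPM. In the A1 group the values were 155, 153, 160 and 164 CPM, and in the A1 + OVA group 149, 141, 140 and 145 CPM. No groups overlapped. Stard4 fell by 28.7% with A1 (log2 fold change -0.49 ± 0.04, adjusted p = 1.784e-10, edgeR) and, with A1 + OVA, fell by 35.2% (-0.63 ± 0.04, adjusted p = 3.07e-12, edgeR).

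To ask what OVA added to A1, the treated groups were compared with each other. Insig1, Mbtps1 and Stard4 were lower with OVA, against a background of 12.9% of tested genes called (6.81% lower and 6.05% higher). The log2 differences were small, at -0.13 ± 0.04 for Insig1 (adjusted p = 0.0276, edgeR), -0.12 ± 0.04 for Mbtps1 (adjusted p = 0.0362, edgeR) and -0.14 ± 0.04 for Stard4 (adjusted p = 0.0171, edgeR). Insig2 differed by 0.15 ± 0.05 (adjusted p = 0.0511, edgeR) and Mbtps2 by 0.10 ± 0.04 (adjusted p = 0.131, edgeR). For these 5 genes the samples of A1 and A1 + OVA did not overlap, as for 18.1% of all tested genes. Srebf1 (-0.03), Srebf2 (0.02) and Scap (-0.02) overlapped and did not pass. Leaving out any 1 of the 8 treated libraries lost at least 1 of the 3 calls, and leaving out a control library lost none of them. Only 1 of the 3 remained without A1 replicate 3 (Stard4), 1 without A1 replicate 4 (Insig1), 1 without A1 + OVA replicate 3 (Insig1) and 0 without A1 + OVA replicate 2, where 5 of the 8 genes had an unadjusted p under 0.05 in edgeR. With a log2 fold change of at most -0.5 also required, 0 of the 8 passed as lower, against 0.433% of all tested genes. With all samples DESeq2 also called these 3 genes.

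Genes known to be controlled by SREBP-2 moved with Srebf2, Insig1 and Stard4. Of 21 cholesterol synthesis genes, 19 fell with A1 and 1 rose, with a median log2 fold change of -0.95, where 31.1% of all tested genes were called lower and 31.7% higher. Hmgcs1, an early synthase of the pathway, fell from 590 ± 26.4 to 289 ± 14.7 CPM (log2 fold change -1.03), and Idi1, the isomerase of isoprenoid units, fell from 59.5 ± 4.29 to 25.2 ± 0.727 CPM (-1.24). The epoxidase Sqle fell by 0.95 on the log2 scale. The exceptions, named after their values were seen, were Lbr, a sterol reductase of the nuclear envelope, which was higher (0.10), and Ebp (-0.01), which did not pass. With A1 + OVA, 19 of the 21 fell and 0 rose (median -0.93), where 27.9% of all tested genes were called lower and 29.7% higher. Between the treatments 0 of 21 passed in edgeR, 3 had an unadjusted p under 0.05, and DESeq2 called 0.

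Of 8 genes listed for sterol uptake and handling, 6 were tested. With A1, 4 of them fell and 1 rose, beside a background of 31.1% of all tested genes called lower and 31.7% called higher. Lpin1, a phosphatidate phosphatase, fell by 1.37 and Rnf145, a ubiquitin ligase that acts on SCAP, by 0.58 on the log2 scale. Tmem97, an endoplasmic reticulum protein tied to NPC1, rose by 0.37, from 55.9 to 58.5 CPM in control samples to 72.8 to 76.4 CPM in A1 samples. With A1 + OVA the counts were again 4 lower and 1 higher, beside a background of 27.9% called lower and 29.7% called higher. Tmem97 was 0.21 lower in log2 with A1 + OVA than with A1 alone (adjusted p = 0.00617, edgeR).

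SREBP-1 targets also fell while Srebf1 RNA did not. Of 16 fatty acid synthesis genes, 15 were tested. With A1, 13 fell and 0 rose (median -0.58), where 31.1% of all tested genes were called lower and 31.7% higher. With A1 + OVA, 14 fell and 0 rose (median -0.57), where 27.9% of all tested genes were called lower and 29.7% higher. The desaturases Scd1 and Scd2 fell by 0.92 and 0.95 on the log2 scale, Scd2 from 1792 ± 42.3 to 925 ± 16.0 CPM. Acaca, the acetyl-CoA carboxylase, fell by 0.58, and fatty acid synthase, Fasn, by 0.36. The groups of Fasn overlapped, with 165 to 212 CPM in control and 121 to 166 CPM in A1 samples.

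Of 16 genes of INSIG-linked degradation or SCAP binding, 6 rose, 2 fell and 8 did not pass with A1, with a median of 0.07, beside a background over all tested genes of 31.7% called higher and 31.1% called lower. Spring1, a protein known to keep SCAP and site-1 protease working, rose (0.22, adjusted p = 0.00462, edgeR). The ubiquitin ligase gene Rnf139 was called lower (-0.13, adjusted p = 0.0343, edgeR) and Pgrmc1, an INSIG partner, was called higher (0.11, adjusted p = 0.0440, edgeR). Both calls were narrow, and the A1 and control samples of both genes overlapped. The Rnf139 call was lost in 5 of 20 alternative fits and the Pgrmc1 call in 11 of 20. Paqr3, a Golgi anchor of SCAP-SREBP, did not pass (-0.16). The count in that list was 8 with all samples and 5 without control replicate 1 or without A1 replicate 4. Of the 13 COPII coat genes, which carry SCAP-SREBP out of the endoplasmic reticulum, 7 rose and 1 fell (median 0.09), beside the same background. Sec24a rose by 0.29 and Sec24d by 0.36, and the GTPase gene Sar1a did not pass (0.07). With A1 + OVA these lists had 5 higher and 1 lower of 16, and 6 higher and 1 lower of 13. The background with A1 + OVA was 29.7% of all tested genes called higher and 27.9% called lower.

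**Figure D4:**
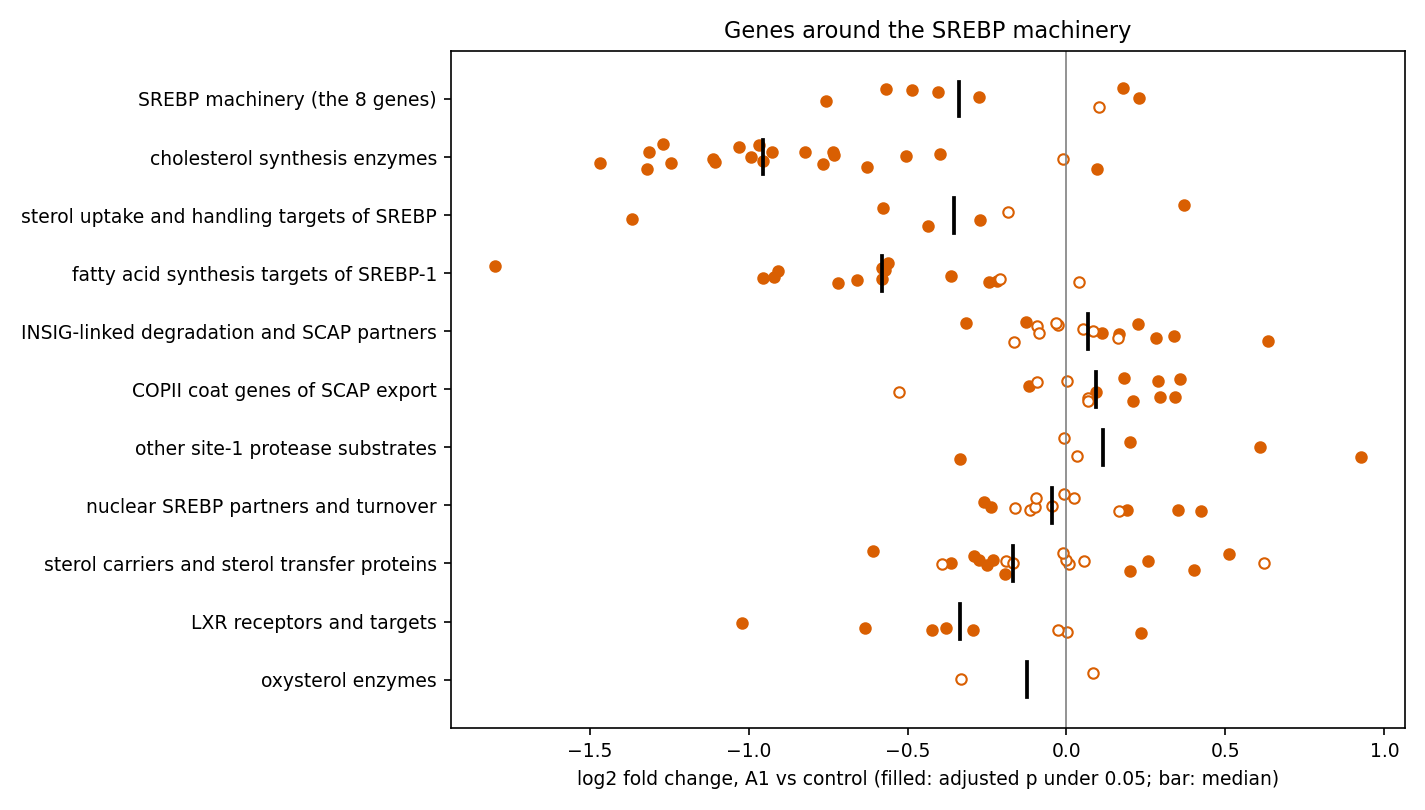
Log2 fold change with A1 against control for each tested gene of the SREBP machinery and of the pathway lists (points; filled, adjusted p under 0.05 in edgeR; vertical bar, list median). The cholesterol synthesis genes lay lowest, with a median of -0.95, and the COPII and degradation lists were centred near 0.

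Site-1 protease also cuts other proteins, and these were counted because Mbtps1 itself fell. Of 8 such substrates, 6 were tested, and 3 rose and 1 fell with A1, close to the background of 62.7% of all tested genes called. Atf6, a stress sensor of the endoplasmic reticulum, rose from 80.9 ± 2.00 to 154 ± 4.78 CPM (log2 fold change 0.93). Gnptab, the enzyme subunit that tags lysosomal proteins, fell by 0.33 with A1 and by 0.15 with A1 + OVA, and was 0.18 higher with A1 + OVA than with A1 (adjusted p = 0.0045, edgeR). Of 13 nuclear partners and turnover factors of SREBP, 3 rose, 2 fell and 8 did not pass with A1, beside a background of 62.7% of all tested genes called, and the ubiquitin ligase gene Fbxw7 was at 0.17 (adjusted p = 0.0549, edgeR). Under upper-quartile normalization, and without control replicate 1, 8 of these 13 passed, 3 higher and 5 lower. With A1 + OVA, 3 rose and 6 fell, beside a background of 29.7% of all tested genes called higher and 27.9% called lower.

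Among 22 sterol carriers other than Stard4, 19 were tested, and 4 rose, 7 fell and 8 did not pass with A1 (median -0.17), close to the background of 62.7% called (31.7% higher and 31.1% lower). Stard3, a carrier of late endosomes in the same protein family as Stard4, rose by 0.51, and Osbp, which exchanges sterol at Golgi contacts, rose by 0.26, whereas Npc1, the lysosomal exporter, did not pass (-0.01). With A1 + OVA, 5 rose and 6 fell, where 29.7% of all tested genes were called higher and 27.9% lower. Of 9 genes of LXR, the receptor for oxysterols, with its partners and targets, 8 were tested. With A1, 5 fell and 1 rose (median -0.34), beside a background of 31.1% called lower and 31.7% called higher. With A1 + OVA, 4 fell and 1 rose, beside 27.9% called lower and 29.7% called higher. Abca1 fell with A1 from 11.01 ± 1.01 to 8.20 ± 0.430 CPM (log2 fold change -0.42, adjusted p = 0.00366, edgeR). With A1 + OVA it stood at 10.7 ± 2.09 CPM (-0.04), 0.39 higher than with A1 (adjusted p = 0.0363, edgeR). The treated groups overlapped, at 11.5, 8.67, 9.44 and 13.3 CPM with A1 + OVA and 7.67 to 8.71 CPM with A1. Mylip, an LXR-induced ubiquitin ligase, did not pass (-0.03). Of 6 oxysterol enzymes, 2 were tested and 0 passed with A1 in edgeR. Ch25h, which makes 25-hydroxycholesterol, had 6 to 9 counts in control, 3 to 12 in A1 and 11 to 17 in A1 + OVA libraries, and was called higher with A1 + OVA (0.97 ± 0.30, adjusted p = 0.00956, edgeR). Cyp27a1 had at most 2 counts in any library, at or under the floor of 3 counts.

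Across the 12 samples, the log2 CPM of the genes that fell moved together. Pearson's r was 0.98 between Insig1 and Stard4, 0.94 between Insig1 and Srebf2 and 0.93 between Srebf2 and Insig2, and -0.91 between Insig1 and Mbtps2. Scap and Srebf1 had r = 0.63. These values describe samples that fall into treated and untreated clusters and share libraries, and many other genes had values as high. For each gene called with A1, the 2 other genes of highest r were listed. For Insig1 they were Hsd17b7 (0.997), a cholesterol synthesis enzyme, and Dcaf8 (0.996), and 887 genes had r above 0.9. For Srebf2 they were Mvk (0.988), the mevalonate kinase, and Myo18a (0.987), and for Stard4 Sema3e (0.993) and the fatty acid elongase Elovl6 (0.993). Insig2 was nearest to Sord (0.981) and Fam129a (0.980), Mbtps1 to H1f0 (0.990) and Cd24a (0.985), and Mbtps2 to Uhrf1bp1l (0.971) and Gnpnat1 (0.968). Srebf1 differed, since 6 genes had r above 0.9, led by Ap2a1 (0.935) and Ubald1 (0.911).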

How the data were processed

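The authors prepared strand-specific poly(A) libraries, aligned reads to GRCm38 and deposited raw counts per Ensembl gene without normalization (bcl2fastq 2.20, STAR 2.7 and featureCounts 2.0 in the submitters' processing notes). Symbols, exons and biotypes came from a GRCm38 annotation holding 99.53% of the identifiers, and promoters and miRNAs from RefSeq. The 8 genes and all lists were chosen with earlier results of these data known. Of 21974 protein-coding genes, 11314 passed edgeR's filterByExpr. They were normalized by TMM and tested in 1 quasi-likelihood fit of 12 samples in 3 groups (edgeR 4.0.16, R 4.3.3), with Benjamini-Hochberg adjustment over all of them and a threshold of 0.05. CPM use TMM library sizes, and log2 CPM a prior count of 2. Shares were tested by exact permutation. Named were all 8 genes, 27 pathway genes picked by role, and the 2 genes most correlated with each gene called with A1. A few others picked by role are left out here. Alternatives were DESeq2 1.42.0, other scalings, filters and fold thresholds, a replicate block, raw-count shares and each library left out. The fit was run on simulated counts with few changed genes, balanced in direction and at a fixed spread. Change as broad as that seen with A1 was not simulated. Replicates of a group differed by 1.91 to 6.80 times counting noise, so that no library was a copy. Signals of at most 3 counts per library were treated as not detectable, and 4 samples per group limit the precision.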

Additional observations from a re-analysis of the deposited data

Results flagged for a closer look

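In 5 of 111 groups of 4 samples, 1 sample stood apart by Dixon's criterion, and chance alone marks about 1 group in 20. Scap was at 59.9 CPM in A1 replicate 1, with the others between 55.1 and 55.6 CPM. Mbtps1 was at 199 CPM in control replicate 1 (others 190.9 to 192.2 CPM) and at 142 CPM in A1 + OVA replicate 3 (others 148.8 to 149.5 CPM). Control replicate 1 also held the lowest control value of Sec24a, at 69.6 CPM against 75.9 to 77.1 CPM. Sec24d was at 182 CPM in A1 + OVA replicate 4, with the others between 195 and 197 CPM.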

How the results depend on the processing

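Of 323 recomputed counts and shares, 308 kept their call and size, and of 998 recomputed single-gene values, 941 kept their direction and side of the threshold. With a further limit of 0.5 on the absolute log2 fold change, 2, 2 and 0 of the 8 genes were called in A1 against control, A1 + OVA against control and A1 + OVA against A1 (7, 6 and 3 without it; for the last, 5 had an unadjusted p under 0.05 in edgeR). Leaving out 1 library gave 6 to 8, 6 to 7 and 0 to 4 called. It gave 5 to 9 in the list of INSIG-linked degradation and SCAP partners and 5 to 8 in the nuclear list, which upper-quartile normalization also moved to 8. The cause was not tested. The Insig1 share in A1 against control ranged from -3.37 to -2.04 points with 1 library left out. Same-numbered samples had a mean correlation of deviations of 0.021 over 12 pairs (-0.132 to 0.156), so that the number was not taken as a pairing. With the number as a replicate block, 7, 6 and 4 of the 8 genes were called, Insig2 joining in A1 + OVA against A1 (adjusted p = 0.0414, edgeR). The share differences of -6.85, -4.28, -5.88 and -5.33 points then had an adjusted p of 0.15 each in the paired exact sign-flip test, which with 4 pairs cannot reach the threshold. Insig2 was also called in A1 + OVA against A1 under upper-quartile normalization (adjusted p = 0.0430, edgeR) and with at least 10 counts in every sample (adjusted p = 0.0484, edgeR), and Mbtps1 was not without a filter (adjusted p = 0.0661, edgeR). With 1 library left out, 3 values with no call turned direction: Scap in A1 + OVA against A1 ranged from -0.037 to 0.010 (0.010, 0.0021 and 0.0034 without A1 replicate 1 and A1 + OVA replicates 3 and 4), Npc1 with A1 from -0.074 to 0.013 (0.013 and 0.010 without control replicate 3 and A1 replicate 3), and Ch25h with A1 from -0.29 to 0.32 (-0.027 and -0.29 without control replicate 1 and A1 replicate 1). Depth limits Ch25h and Cyp27a1.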
